A study of Mus musculus with 3264 samples.

Results

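The hematopoietic progenitor cell (HPC) line of a mixture of 3 mouse cell lines is described here, gene by gene, in the wells for which its cells were picked by type. Wells of the 4 plates labelled as HPC were kept where the summed expected counts of Plac8, Ifitm1, Mef2c, Cd34 and Tyrobp came to 5 or more, which left 70 of the 73 HPC wells listed in the deposited table (17, 21, 17 and 15 on plates 1 to 4), out of 2182 wells listed in the whole series. These 5 genes chose the wells, so their levels are given as a description and support nothing below.

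In the study, mouse cells were picked one at a time into the wells of 96-well plates by ALPS, an automated imaging and picking system, and the RNA of each well was counted with molecular barcodes. The HPC wells are compared with the wells of the same plates labelled as leukemia cells (30, 34, 30 and 32 wells listed on plates 1 to 4) and as T cells (31, 32, 24 and 33 wells). All 3 groups came from 1 mixture of the lines, were picked by the same system and carry no further treatment, genotype, age or strain in the labels, and the labels name neither the lines nor separate cultures. HPC wells had the last well numbers of each plate, so line and well position cannot be told apart. Each well is 1 cell, so each line counts as 1 sample. No test was run and no p-value was computed, and the 4 plates, a technical batch, give the spread.

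Hematopoietic progenitors are the dividing cells of the marrow that still carry the CD34 surface antigen and give rise to blood cells. Their identity rests on transcription factors such as the Hoxa cluster, Meis1, Lmo2 and Sox4 and on growth factor receptors such as Flt3 and Kit. PU.1, the product of Spi1, and C/EBPα, the product of Cebpa, direct progenitors towards monocytes and granulocytes, and Tcf7, Gata3 and Bcl11b direct them towards T cells.

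A kept HPC well held 12350.4 to 70593 expected counts (median 33905.5) over a median of 5469.5 detected genes, and a leukemia or T well 11627 to 81813 counts (median 35268). No pair of wells held identical values. The 3 HPC-labelled wells left out were all on plate 4 and held 0, 0 and 1 counts of the 5 genes. Of these, 2 carried the marker genes of the leukemia line at 1878 and 2173 CPM (a share of the counts, scaled to 1e+06) and 1 those of the T line at 2007 CPM, against a median of 0 CPM for either list in kept wells. The lowest kept wells held 13, 38 and 50.5 counts of the 5 genes, and the first of them, well 84 of plate 3, also had the fewest detected genes (3063) and no count of Sox4 or Flt3. Without that well, the genes called higher came to 10.88% of those measured and the genes called lower to 14.34%, close to the shares given below. No doublet caller was run; among the wells of the other lines, 5 held at least 5 counts of the 5 genes. A T-labelled well of plate 2, with 23 such counts (491.5 CPM) beside 1752 CPM of T line markers, held 67 of the 139.67 counts that all leukemia and T wells together had of these 5 genes and the 12 most raised others.

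Levels by plate are CPM of the counts of a group summed on that plate. Differences are the HPC value minus that of leukemia and T wells together in log2 (CPM + 1), averaged over the 4 plates. A gene was measured with at least 10 CPM in either group and called at 2-fold with the same sign on all 4 plates. Of 8444 measured genes, 10.95% were called higher and 14.38% lower in HPC wells, with a median difference of -0.17. Against each other line taken alone, 7.911% were higher than both and 5.945% lower than both. Since wells were kept by genes of the same contrast, these calls describe the line and are no test of it. For a gene at or near 0 in the other wells, the size of the log2 difference rests on the 1 CPM added.

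All 5 marker genes of the line were high in HPC wells. Sox4 was not used to choose the wells as the others were, but the marker list was drawn up with earlier results of these data known. None of the 5 is therefore a test of the label. Cd34, the progenitor surface antigen, stood at 506.3, 575.7, 607.1 and 487.2 CPM on plates 1 to 4 in HPC wells, against 0, 1.80, 0 and 0 CPM in leukemia and T wells. Single HPC wells ran from 25.9 to 1487.1 CPM (median 479.4) and the other wells from 0 to 64.1 CPM (median 0). Every kept HPC well had a Cd34 count and 2 other wells did. Plac8, a small cysteine-rich protein of immature myeloid cells, had a median of 938.95 CPM over HPC wells and was found in 4 other wells. Mef2c, a transcription factor of lymphoid and myeloid progenitors, had a median of 538.7 CPM and was found in 3. Ifitm1, an interferon-induced membrane protein whose counts could be shared with its close relatives, had a median of 642.6 CPM, was absent from 3 of the 70 HPC wells and was counted in 20 leukemia wells and no T well. Tyrobp, an adaptor of myeloid and NK receptors and the fifth gene of the rule, was counted in 68 of 70 HPC wells (median 248.9 CPM) and in 1 other. Sox4, an SRY-related factor of early lymphoid and myeloid cells and the marker that the choice of wells did not use, stood at 358.97, 277.3, 400.2 and 269.6 CPM on the 4 plates in HPC wells, against 0, 1.35, 0 and 0 CPM. It was counted in 68 of 70 HPC wells (97.1%, exact interval 90.1 to 99.7) and in 1 other well (0.407%), the T-labelled well of plate 2 named above.

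**Figure D1:**
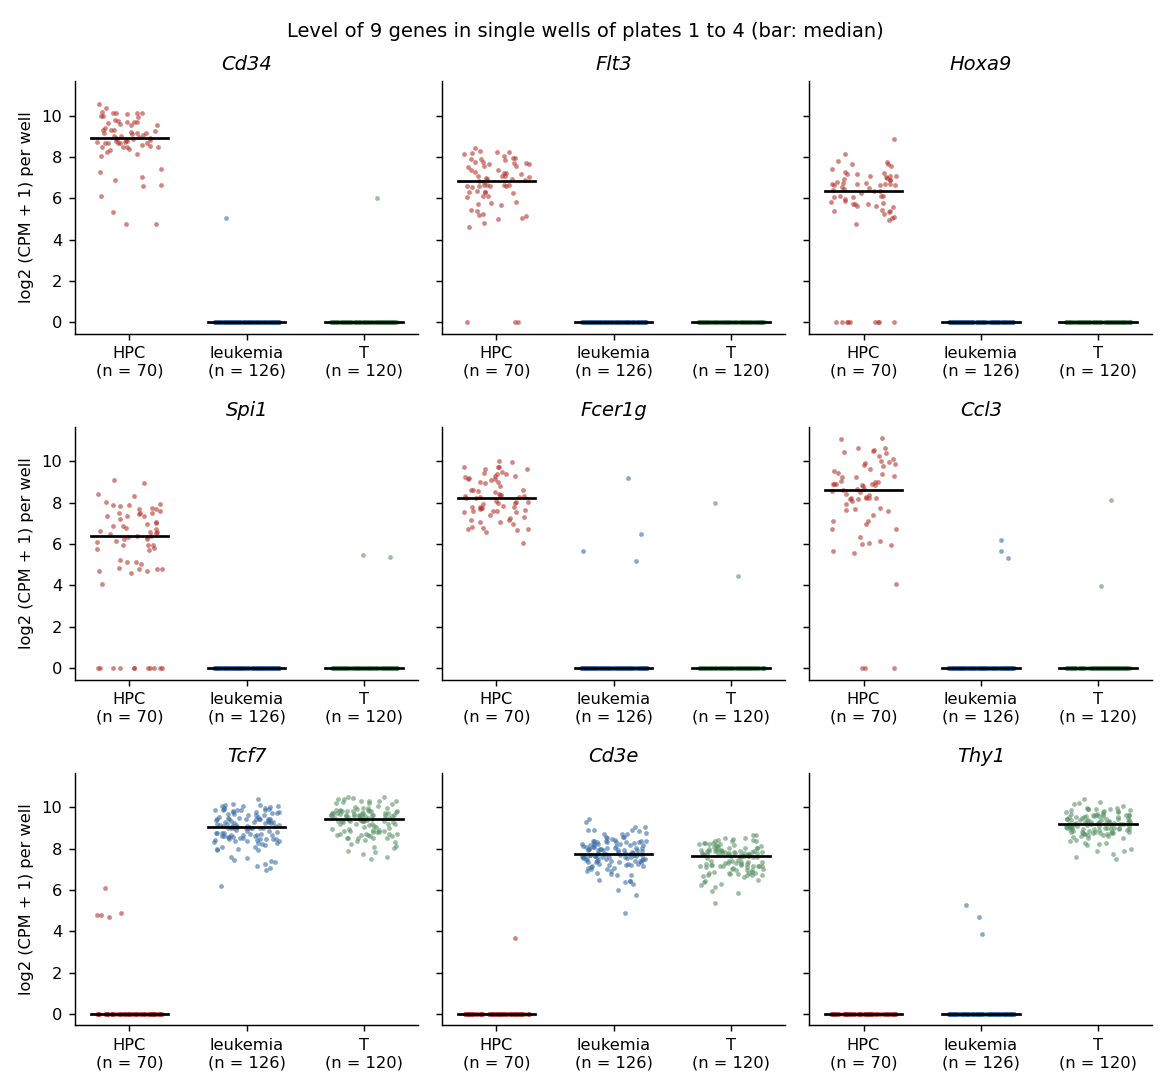
Level of 9 genes as log2 (CPM + 1), 1 point per well, in the 70 HPC wells (left), the leukemia wells and the T wells, with the median as a bar. Most HPC wells lie above both other lines for Cd34, Flt3, Hoxa9, Spi1, Fcer1g and Ccl3, and lie at or near 0 for Tcf7, Cd3e and Thy1, of which Thy1 is near 0 in leukemia wells too.

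The stem and progenitor list was raised in most of its measured members. Of 26 measured genes, 18 were higher in HPC wells, 3 lower and 5 neither, with a median difference of 4.01, against 10.95% higher and a median of -0.17 over all measured genes. Without Cd34 and Mef2c, which chose the wells, 16 of 24 were higher and the median was 3.63. Against each line alone, 17 of the 26 were higher than in both and 1 lower, beside 7.911% and 5.945% of all measured genes. Some members passed the 10 CPM minimum only through HPC wells, and with no minimum the median was 2.61 over 35 genes. Flt3, the receptor of the growth factor FLT3 ligand, stood at 118.5, 140.8, 129.2 and 134.3 CPM on the 4 plates in HPC wells and at 0 counts in all leukemia and T wells, at least 395.5-fold higher with the others set to 3 counts in all. It was counted in 67 of 70 HPC wells and in no other well.

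Among the transcription factors, Hoxa9, a homeobox gene of primitive progenitors, stood at 86.9, 69.7, 103.7 and 119.2 CPM in HPC wells and at 0 counts in the others, at least 279.9-fold higher. Its neighbours Hoxa10 (difference 5.75) and Hoxa7 (6.21) were also at 0 in the others, and Hoxa5 was higher by 2.92. Meis1, the homeobox partner of the Hoxa proteins, stood at 13.5, 21.1, 9.10 and 32.2 CPM in HPC wells and at 0 counts in the others, and was counted in 24 of 70 HPC wells. Lmo2, an adaptor of the stem cell transcription complex, stood at 76.2, 60.5, 50.9 and 75.7 CPM in HPC wells, against 0, 0.450, 0 and 0.390 CPM. Its partner Lyl1 was higher by 4.64 and Erg, an ETS factor, by 3.84. Lyl1 overlaps an exon of Nfix on the opposite strand, and whether strand was used in counting is not given in the sources used here.

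Several genes of the list gave no such signal. Gata2, Mecom, Hlf and Slamf1, factors and a surface receptor of hematopoietic stem cells, had 0 counts in the 70 HPC wells, a limit of 1.26 CPM at 3 counts, and Procr stood at 0.420 CPM. Kit, the stem cell factor receptor, stood at 4.62 CPM in HPC wells and 0 CPM in the others, under the 10 CPM minimum. Runx1 (0.66), Ikzf1 (0.81), Fli1 (0.84), Cd27 (0.09) and Bmi1 (-0.55) were measured and not called. Ly6a, the Sca-1 antigen of mouse stem cells and also of T cells, was lower, at 6.30 CPM against 166.7 CPM, as were Zfpm1, the GATA cofactor FOG1 (-3.48), and Gfi1 (-2.04).

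**Figure D2:**
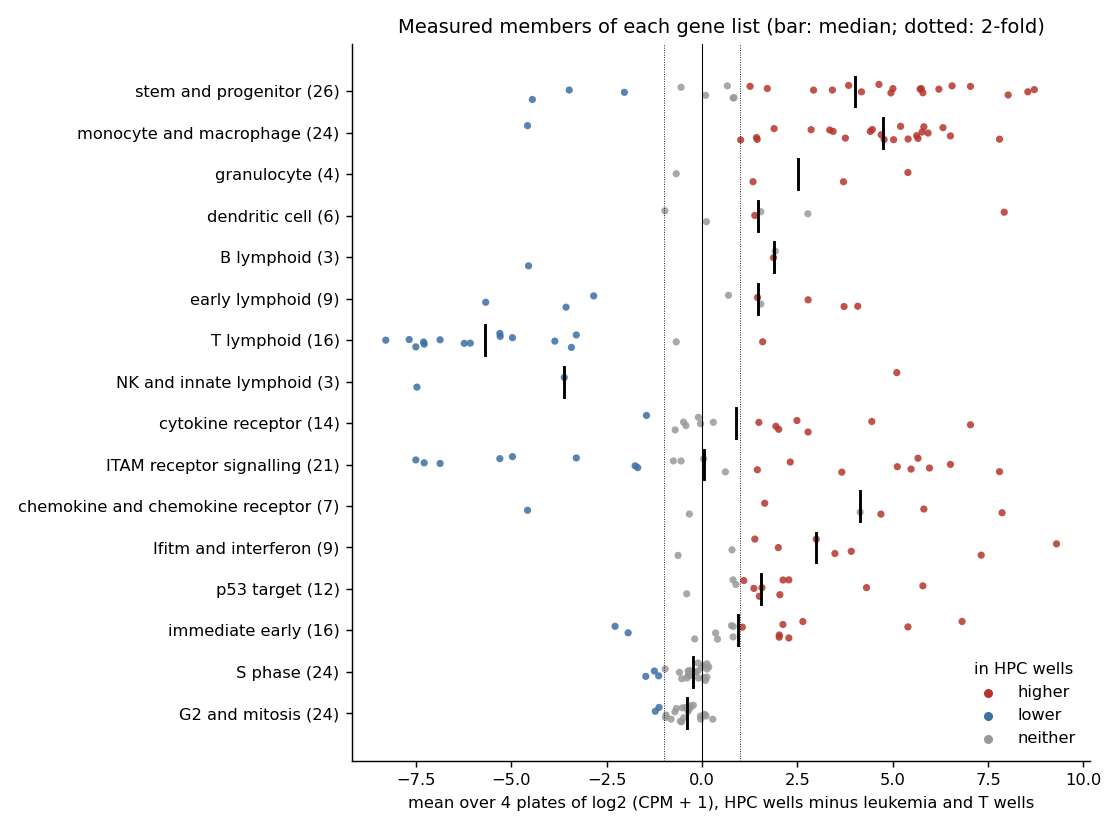
Difference of each measured list member, HPC wells minus leukemia and T wells in log2 (CPM + 1), averaged over 4 plates, by gene list with the number measured in brackets; red is called higher, blue lower, grey neither, and the bar is the median. Stem and monocyte genes lie mostly above 0, T lymphoid genes below, the receptor signalling list splits to both sides, and the cell cycle lists stay close to 0.

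Nearly all measured monocyte and macrophage genes were higher. Of 24 measured, 23 were higher in HPC wells and 1 lower, with a median of 4.74, against 10.95% higher over all measured genes, and 22 of the 23 measured without Tyrobp were higher. Against each line alone, 20 of the 24 were higher than in both, as were 7.911% of all measured genes. With no minimum on the level, the median was 3.39 over 34 genes. Spi1, which encodes PU.1, stood at 111.8, 108.4, 92.8 and 81.4 CPM on the 4 plates in HPC wells, against 0, 1.35, 0 and 0 CPM, a ratio of 300.4 over all wells with an exact counting interval of 101.6 to 1467.2. It was counted in 59 of 70 HPC wells and in 2 other wells. Fcer1g, the Fc receptor gamma chain, stood at 323.4, 367.4, 334.7 and 276.3 CPM in HPC wells, against 0.426, 5.40, 0.522 and 10.5 CPM, and all 70 HPC wells had a count. The lowest HPC well had 65.4 CPM and the median of the other wells was 0, with 6 of them carrying the gene and the highest at 589.8 CPM, so that the groups overlapped only through those wells.

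The NADPH oxidase subunits Ncf1 (5.63) and Ncf4 (5.40) were higher and had 1 and 2 counts over all leukemia and T wells, and Cyba, the membrane subunit, differed by 1.45. Ncf1 overlaps Gtf2ird2 on the opposite strand. Ctss, the lysosomal protease cathepsin S, stood at 79.6, 76.01, 50.9 and 60.5 CPM in HPC wells and at 1 count in the others. Irf8, a factor of monocyte and dendritic progenitors, was higher by 4.70, and the surface receptors Sirpa (5.66), Cd33 (4.46) and Pirb (3.44) were higher too. Markers of more mature cells were mixed. Fcgr3, an Fc receptor, stood at 128.6 CPM, Cd68, a lysosomal protein, at 14.7 CPM and Itgam, the CD11b integrin chain, at 13.9 CPM in HPC wells, and all were called higher. Csf1r stood at 7.99 CPM, Cd14 at 1.68 CPM and Adgre1, which encodes F4/80, at 0.420 CPM, and Cybb and Lgals3 had 0 counts. Cx3cr1, a chemokine receptor, was lower in HPC wells (-4.58), but not called lower than in each other line alone.

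Granulocyte genes were few. Of 22 listed, 4 were measured and 3 of these were higher, against 10.95% over all measured genes. The median of the 4, 2.52, fell to 0.62 over 14 genes with no minimum on the level. Mpo, the myeloperoxidase of granulocyte precursors, stood at 55.03, 50.7, 113.7 and 36.0 CPM on the 4 plates in HPC wells, against 0, 0.8997, 1.04 and 0 CPM, and Cebpa at 10.2, 15.5, 11.8 and 11.4 CPM, against 0 counts. Elane, Ctsg, Camp, Ltf, S100a8 and S100a9, the granule and cytoplasmic proteins of later stages, had 0 counts in HPC wells. The erythroid list had 1 measured member, a beta-globin gene, Hbb-bt, at 110.8, 94.3, 59.3 and 64.01 CPM in HPC wells against 0, 0.225, 0 and 0.293 CPM. Its counts may be shared with near-identical globin copies. Gata1, Epor and Alas2 had 0 counts, and no megakaryocyte gene reached 10 CPM. The 1 measured mast cell gene, the protease Cpa3, was lower (-6.45). Of 6 measured dendritic cell genes, 2 were higher and 4 neither.

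Promoters are shown for 3 of the raised myeloid genes because their starts hold a PU.1-type core, GAGGAAGT, searched on both strands in the 250 bases before to 50 after the start. The sequences are RefSeq's, build GRCm38.p6 (mm10), read 5′ to 3′ on the gene's strand, with each match in capitals (ACTTCCTC where it lies on the other strand). Mpo lies on the plus strand at chr11:87793534-87793833, Ctss on the plus strand at chr3:95526536-95526835 and Pld4, a lysosomal exonuclease, on the plus strand at chr12:112760405-112760704.
Mpo: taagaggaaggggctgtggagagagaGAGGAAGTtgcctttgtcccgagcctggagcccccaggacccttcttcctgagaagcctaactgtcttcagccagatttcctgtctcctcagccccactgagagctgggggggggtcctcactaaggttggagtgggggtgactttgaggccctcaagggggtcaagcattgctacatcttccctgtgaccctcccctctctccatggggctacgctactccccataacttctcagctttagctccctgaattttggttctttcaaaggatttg
Ctss: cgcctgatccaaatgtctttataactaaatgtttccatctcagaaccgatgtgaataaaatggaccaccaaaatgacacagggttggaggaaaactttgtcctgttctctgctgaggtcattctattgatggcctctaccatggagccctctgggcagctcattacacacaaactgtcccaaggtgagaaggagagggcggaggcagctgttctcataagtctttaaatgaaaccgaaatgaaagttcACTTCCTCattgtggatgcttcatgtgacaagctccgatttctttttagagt
Pld4: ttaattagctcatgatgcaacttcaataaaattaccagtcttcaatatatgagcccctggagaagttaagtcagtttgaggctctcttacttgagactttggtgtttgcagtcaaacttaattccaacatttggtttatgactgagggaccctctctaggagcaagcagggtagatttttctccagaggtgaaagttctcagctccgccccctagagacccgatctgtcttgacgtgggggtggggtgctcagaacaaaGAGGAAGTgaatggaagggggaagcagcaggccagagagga

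Of the 26 monocyte, macrophage and granulocyte genes called higher, 19 had a promoter in the table and 5 of these (26.3%), the 3 shown with Pirb and Ly6c2, held the core. It was in 6.60% of all genes called higher with a promoter in the table, in 3.77% of the measured genes with one and in 3.69% of all 27025 genes with one. Ly6c2 has close relatives with which counts could be shared. A match is a description of these letters and not a site, and the genes were chosen with these data known.

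Signalling through ITAM adaptors, which link immune receptors to tyrosine kinases, split into a myeloid and a T cell set. Of 21 measured genes, 9 were higher, 8 lower and 4 neither in HPC wells, beside 10.95% higher and 14.38% lower over all measured genes. The median was 0.04 and turned negative without Tyrobp (-0.25) and when Rn45s was left out (-0.23). The higher set held the adaptors Tyrobp (7.80), which chose the wells, and Fcer1g (6.51), the kinases Lyn (5.66), Btk (5.48), Syk (5.12) and Tec (1.45), the phospholipase Plcg2 (3.66), the adaptor Lat2 (2.31), which overlaps Rfc2 on the opposite strand, and the phosphatase Ptpn6 (5.96). The lower set held T cell counterparts, among them the receptor chains Cd3e (-7.51) and Cd3g (-7.29), the kinases Zap70 (-5.30) and Lck (-3.30), and the adaptors Lat (-6.87) and Lcp2 (-1.76). Ptprc, the CD45 phosphatase of all white blood cells, was lower too, at 154.5, 126.7, 140.1 and 151.4 CPM in HPC wells, against 464.3, 430.8, 465.2 and 489.8 CPM.

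T lymphoid genes were lower as a list. Of 16 measured, 14 were lower in HPC wells, 1 higher and 1 neither, with a median of -5.69, against 14.38% lower over all measured genes. Against each line alone, 8 of the 16 were lower than in both, as were 5.945% of all measured genes. With no minimum on the level, the median was -3.43 over 25 genes. Tcf7, a transcription factor of T cells, stood at 1.69, 1.41, 1.82 and 3.78 CPM on the 4 plates in HPC wells, against 629.4, 581.8, 646.7 and 650.4 CPM. It was counted in 5 of 70 HPC wells and in all others, and the highest HPC well (67.5 CPM) lay just under the lowest of the others (71.2 CPM). Cd3e, a chain of the T cell receptor complex, had 0.5 counts in all HPC wells and a count in every other well. Thy1, a T cell surface glycoprotein, and Bcl11b had 0 counts in HPC wells, and Thy1 was at least 252.1-fold lower; it was at 600.2 CPM in T wells and 0.587 CPM in leukemia wells, so its difference is set by the T line. The exception was Ubash3a, a phosphatase of the T cell receptor pathway (1.59, 14.3 CPM against 3.98 CPM), and Cd28 was not called (-0.68). The 6 marker genes of the T line and the 6 of the leukemia line were all lower than in the other wells together. These markers were also chosen with earlier results of these data known, so this describes the lines and tests nothing. Against each line alone, 3 of the T line markers and 2 of the leukemia line markers were lower than in both. Of 3 measured NK and innate lymphoid genes, 1 was higher and 2 lower.

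Genes of early lymphoid progenitors went both ways. Of 9 measured, 4 were higher, 3 lower and 2 neither, with a median of 1.45. Over all measured genes, 10.95% were higher and 14.38% lower. Rag2, a subunit of the antigen receptor recombinase, stood at 20.3, 15.5, 7.28 and 9.46 CPM in HPC wells and at 0 counts in the others, at least 40.6-fold higher. It was counted in 19 of 70 HPC wells. Il7r, the interleukin-7 receptor (2.78), and Notch1 (4.08) were higher as well. Satb1, a chromatin organiser, was higher than in T wells (189.6 against 0.888 CPM) and not called against leukemia wells (143.5 CPM, difference 0.39). Lef1 (-5.67), Ets1 (-3.57) and Tcf3 (-2.84) were lower. Rag1 stood at 2.52 CPM and Dntt at 0.420 CPM, under the minimum. Of the B lymphoid list, Ebf1 and Pax5 had 0 counts. Of its 3 measured genes, 1 was higher, Cd24a, a surface glycoprotein (1.87), 1 was lower (-4.55) and 1 neither.

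Growth factor, chemokine and interferon genes were raised in part, against 10.95% higher over all measured genes. Of 14 measured cytokine receptors, 7 were higher and 1, Il2rg, was lower (-1.46). Beside Flt3 the largest was Csf2rb, the common beta chain of the interleukin-3 and GM-CSF receptors (4.45), followed by Il7r and Il4ra (2.49). Socs2, an inhibitor of cytokine receptor signalling, stood at 406.4, 468.04, 395.6 and 363.3 CPM in HPC wells, against 0.852, 0.8997, 2.09 and 1.95 CPM. Of 7 measured chemokine and chemokine receptor genes, 4 were higher. Their median of 4.15 fell to 0.80 over 14 genes with no minimum on the level. Ccl3, a chemokine of myeloid cells, stood at 407.2, 421.6, 517.5 and 662.2 CPM in HPC wells, against 1.92, 5.85, 0 and 0 CPM, and 13 of its 17.5 counts in other wells came from the T-labelled well of plate 2. Without the 5 wells of other lines that carried the rule genes, its difference was 8.55, against 7.87 with them. Ccr2, a monocyte chemokine receptor, was higher by 5.82. Of 9 measured Ifitm and interferon genes, 7 were higher, or 5 of 7 without Plac8 and Ifitm1. Ifitm2 (2.99) and Ifitm3 (3.48) were among them. The median of this list fell from 2.99 to 0.55 over 21 genes with no minimum on the level.

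The 12 largest differences each way came from several of these lists and from outside them. Ybx3, a cold shock domain protein, had the largest difference outside the genes of the rule (8.41, 348.9 CPM in HPC wells and 0.17 counts in all others). It was followed by Sox4 (8.03), Tcf4, an E protein of lymphoid and plasmacytoid dendritic cells (7.92), Ccl3 (7.87), Itga4, the integrin alpha 4 chain (7.84), Xist, the RNA of the inactive X chromosome (7.64), and Lsp1, a leukocyte actin-binding protein (7.52). Socs2 (7.42), Myl10, a myosin light chain (7.16), Flt3 (7.04), Wdfy4 (6.85) and Ramp1, a receptor activity-modifying protein (6.85), completed the 12. Xist stood at 299.7, 279.4, 381.99 and 253.5 CPM in HPC wells, against 0, 2.70, 0 and 0.390 CPM, and was counted in 65 of 70 HPC wells and 2 others. It overlaps Tsix on the opposite strand. At the other end, after Thy1 (-8.29), came Anxa2, a membrane-binding annexin (-7.99), Tcf7 (-7.68) and Cd3e (-7.51), then Cd160 (-7.48), Bcl11b (-7.30), Cd3g (-7.29) and Cel, a lipase (-7.18), and last Cacna2d2, a calcium channel subunit (-7.17), Zfp575 (-6.98), Abcb9 (-6.93) and Lat (-6.87). Cd160, Cel and Cacna2d2 were near 0 in T wells as well, at 0.104, 0.209 and 1.15 CPM.

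Most p53 target genes and some immediate early genes were higher, against 10.95% of all measured genes. Of 12 measured p53 targets, 9 were higher in HPC wells and none lower, with a median of 1.54. Cdkn1a, the cell cycle inhibitor p21, stood at 255.7, 271.7, 305.6 and 377.5 CPM in HPC wells, against 43.5, 65.2, 74.6 and 99.9 CPM. Its difference was 8.08 against leukemia wells and 1.20 against T wells. Pmaip1, the cell death factor NOXA, stood at 78.7, 66.9, 93.7 and 83.3 CPM, against 0, 3.60, 0 and 0 CPM. Mdm2, the p53 inhibitor (0.81), Sesn1 (0.89) and Aen (-0.40) were not called. Of 16 immediate early genes, 8 were higher, led by the stress-induced factors Atf3 (6.82) and Jun (5.40), 2 were lower, Nr4a1 (-2.28) and Egr1 (-1.94), and 6 were neither. Of 24 S phase genes, 3 were lower and none higher (median -0.24), and of 24 genes of G2 and mitosis 2 were lower and none higher (median -0.40), beside 14.38% lower and a median of -0.17 over all measured genes.

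Wells of the line also differed among themselves. To compare genes at equal depth, every well was thinned at random to 10000 counts and the variance within plates was divided by the mean, a ratio that sampling alone keeps near 1. Over 3065 genes with a mean of at least 0.5 in the thinned HPC wells, the median ratio was 1.16, and 6.88% of the genes reached 2. Without the 9 kept wells under 20000 counts, that share was 4.40%. All 5 genes of the rule reached a ratio of 2. Without them, 2 of 13 stem and progenitor genes above the minimum did, as did 6 of 15 monocyte genes, 4 of 7 p53 targets and all 3 chemokine genes. Flt3 (1.16) and Ikzf1 (1.04) lay near the ratio of sampling, and Tyrobp (5.03) and Ifitm1 (7.90) well above it. Hoxa9 (1.42) lay just above the upper quartile of all these genes, 1.37. The genes named here also differ in level, and the ratios were not matched for it.

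The 12 most variable genes were mostly not lineage genes. Rn4.5s, a small rodent RNA, led with a ratio of 382.3. It ran from 202.5 to 133884 CPM over HPC wells (median 29966), and from 108.4 to 91746 CPM over leukemia and T wells. Rn45s, the ribosomal RNA precursor (84.6), and the long nuclear RNAs Neat1 (33.9) and Malat1 (28.2) were also among them. D17H6S56E-5 had a ratio of 110.9, and well 84 of plate 3, the lowest kept well, alone held 23.04% of its counts, at 27888 CPM. Dqx1 (27.04), Ccdc36 (19.1) and Kif3a (16.9) had 35.5%, 50.9% and 37.6% of their counts in 1 well. Ctr9, a subunit of the PAF1 transcription complex, was present in all 70 HPC wells and ran from 29.9 to 6960 CPM, with a ratio of 15.9. Wfdc17, a secreted inhibitor of activated macrophages (25.2), Btg1, an antiproliferative factor (12.4), and Ccr9 (12.4) completed the 12.

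**Figure D3:**
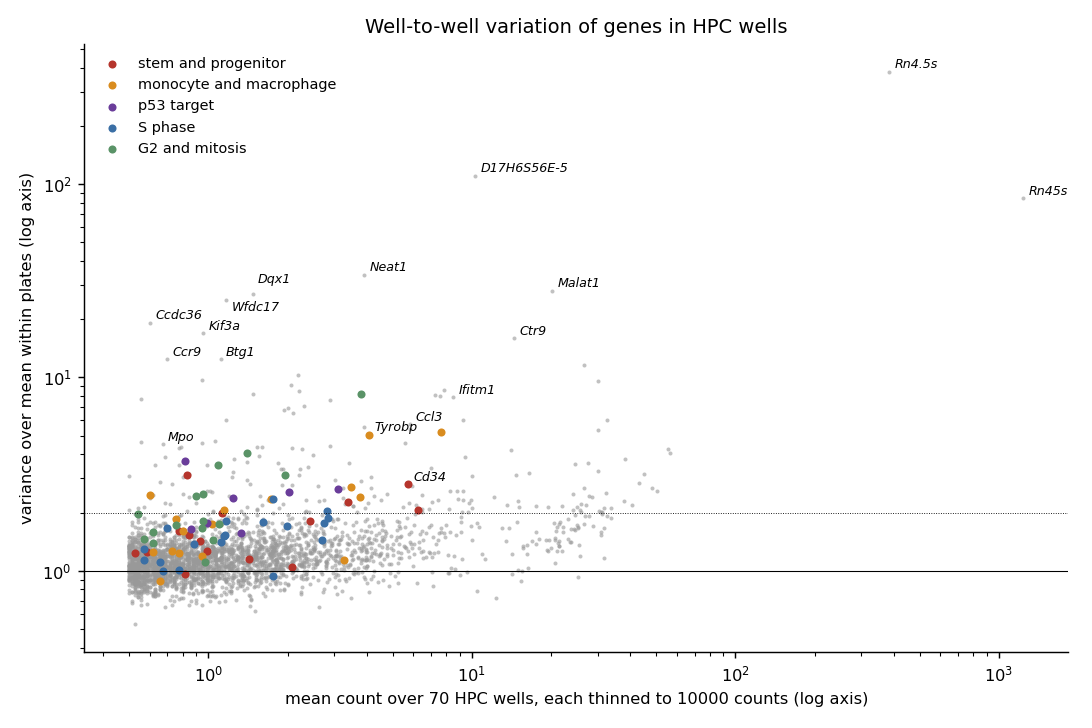
Variance over mean within plates (y, log axis) against the mean count over 70 HPC wells, each thinned to 10000 counts (x, log axis), 1 point per gene with a mean of at least 0.5; coloured points are members of 5 lists. The solid line is the ratio of 1 that sampling gives and the dotted line a ratio of 2, which 6.88% of 3065 genes reach.

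Lineage genes differed in how many wells carried them. Nearly every HPC well had the progenitor and myeloid genes Cd34, Fcer1g, Flt3, Tcf4 (69 of 70) and Sox4 together. Mpo was counted in 27 of 70 (3, 12, 7 and 5 wells on plates 1 to 4), Cebpa in 22, Rag2 in 19 and Nkg7, a granule protein of cytotoxic lymphocytes, in 25, against 4, 0, 0 and 2 other wells. After thinning to 10000 counts, from median depths of 33905.5 counts in HPC wells and 35268 in the others, Mpo was found in 24.3% (exact interval 14.8 to 36.0) of HPC wells, against 0.407% (0.0103 to 2.24) of the others. Mpo and Rag2 shared 7 wells, where the product of their shares gives 7.33. These are shares of wells with a count and not of cells that express the gene, and the intervals cover counting error only.

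Ccr9, a chemokine receptor of lymphoid and dendritic cells, and Jchain, the joining chain of immunoglobulins, were found in few wells but in the same ones. Ccr9 was counted in 6 HPC wells, at 2172, 878.9 and 454.7 CPM in 3 wells of plate 4, 214.8 and 105.5 CPM in 2 wells of plate 1 and 78.4 CPM in 1 well of plate 3. Jchain was counted in 4 of these 6 wells (707.3, 131.9, 100.4 and 80.6 CPM) and in none of the other 64, where the product of the shares gives 0.343 wells. None of the 6 wells held Mpo, where the product of the shares gives 2.31 wells. Both pairs were picked from many pairs of genes compared in this way. The wells are single cells chosen for these values, so nothing was tested in them, and Ccr9 was also counted in 32 other wells (13.01%), at up to 86.01 CPM. Neither gene was called in the comparison of lines, because plate 2 had no HPC well with either.

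**Figure D4:**
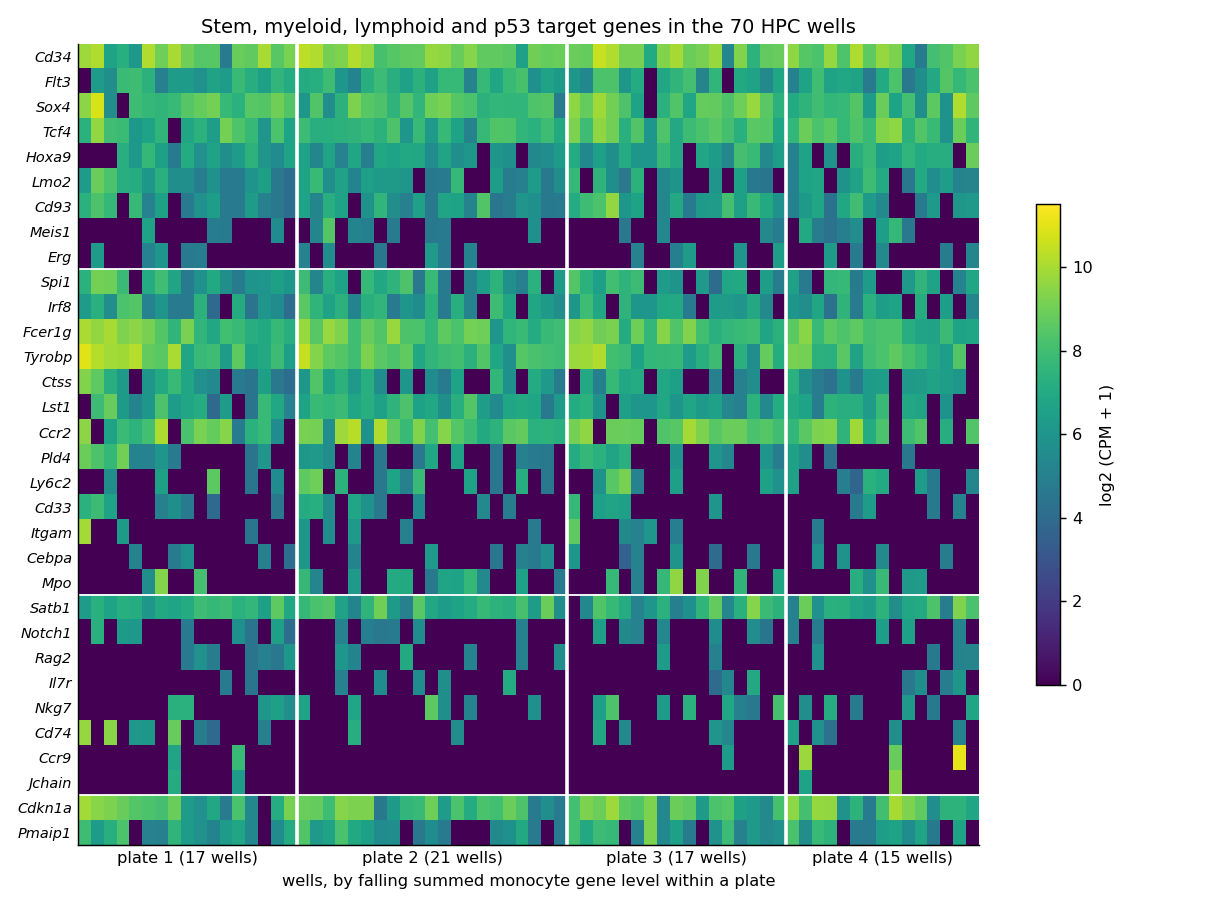
Level, as log2 (CPM + 1), of stem (top block), myeloid, lymphoid and p53 target genes (bottom block) in each of the 70 HPC wells, grouped by plate and ordered within a plate by falling summed level of monocyte genes. The upper stem genes and Fcer1g fill nearly every column, Mpo and Rag2 are scattered over 27 and 19 wells, and Ccr9 and Jchain stand together in 4.

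Cell cycle, p53 target and monocyte genes varied together with depth. The summed level of the 24 S phase genes ran from 80.97 to 5815 CPM over HPC wells (median 2751), that of the G2 and mitosis genes from 0 to 9206 CPM (median 1233.6), with 4 wells at 0, and that of the p53 targets from 212.98 to 4311 CPM (median 936.1). Monocyte genes ran from 1329.6 to 12550.2 CPM (median 2667). Over the 70 wells, each score centred on its plate, Spearman's rho was -0.66 between p53 targets and S phase genes and -0.86, -0.50, -0.66 and -0.54 within plates 1 to 4. It was 0.60 between monocyte and p53 target genes, with 0.60, 0.56, 0.66 and 0.36 within plates. Between monocyte and S phase genes it was -0.56, with -0.77, -0.64, -0.39 and 0.06 within plates, so plate 4 did not share it. These scores share a well's total, and depth moved with them: rho with the total count was 0.64 for G2 and mitosis, 0.45 for S phase, -0.51 for monocyte and -0.47 for p53 target genes. With all wells thinned to 10000 counts, the first 3 values were -0.57, 0.46 and -0.58, and without the 9 wells under 20000 counts they were -0.54, 0.43 and -0.37.

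The wells of low depth stood out in all 4 scores. The 9 HPC wells under 20000 counts (4, 1, 3 and 1 on plates 1 to 4), a limit set by depth, had a median of 675.1 CPM of S phase genes, against 3052 CPM in the other 61. For G2 and mitosis the medians were 201.3 CPM in the 9 wells and 1444.3 CPM in the 61, for p53 targets 2453 and 835.8 CPM, and for monocyte genes 6641 and 2619.7 CPM. Stem genes were closer, at 3629 CPM in the 9 wells and 2969.6 CPM in the 61. Of the 24 S phase genes, 22 were at least 2-fold lower in the 9 wells and none higher, and of the 24 G2 and mitosis genes 23 were lower, with Ccna2, cyclin A2, at 0 counts in them. Of the 12 p53 targets, 9 were at least 2-fold higher and none lower, and of 24 monocyte genes 14 were higher and none lower. Over all 8245 genes at 10 CPM or more, the median difference between the 9 and the 61 wells was -0.04, with 16.8% at least 2-fold higher and 19.95% lower. Counts were pooled over the 4 plates for these differences, so plate and depth were not separated.

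Single genes of these wells are named here after their values were seen. Itgam stood at 136.5 CPM in the 9 wells and 5.82 CPM in the 61, and Wfdc17 at 566.4 and 28.9 CPM. Without the 1 well that held most counts of the gene, the value in the shallow wells was 59.6 CPM for Itgam and 179.3 CPM for Wfdc17. Trp53inp1, a p53-induced protein, stood at 354.9 CPM in the 9 wells and 32.2 CPM in the 61, Sat1, a polyamine catabolic enzyme, at 477.7 and 31.4 CPM, Btg1 at 382.2 and 47.3 CPM, and Mdm2 at 341.2 and 88.9 CPM. Without its top well, Btg1 stood at 149.4 CPM. Top2a, a topoisomerase of dividing cells, stood at 34.1 CPM in the 9 wells and 429.7 CPM in the 61, and Pcna, the replication clamp, at 88.7 and 314.1 CPM, or 55.1 CPM in the shallow wells without its top well. The 9 wells had a median of 0 CPM of the markers of either other line, as did the 61. In 10 leukemia wells of the same depth, S phase genes had a median of 1856 CPM, against 3903 CPM in the deeper leukemia wells. G2 and mitosis genes had 1054.6 CPM in the 10 wells, against 2283.9 CPM in the deeper ones. For monocyte genes these medians were 748.99 and 527.3 CPM, and for p53 targets 225.1 and 236.8 CPM. Both cell cycle lists and the monocyte list thus moved in the same direction as in HPC wells, while p53 targets were not higher. The spike-in RNA of the protocol was not used here, so less RNA in a cell and poorer capture of it cannot be told apart, and the part of depth in these values was not tested.

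**Figure D5:**
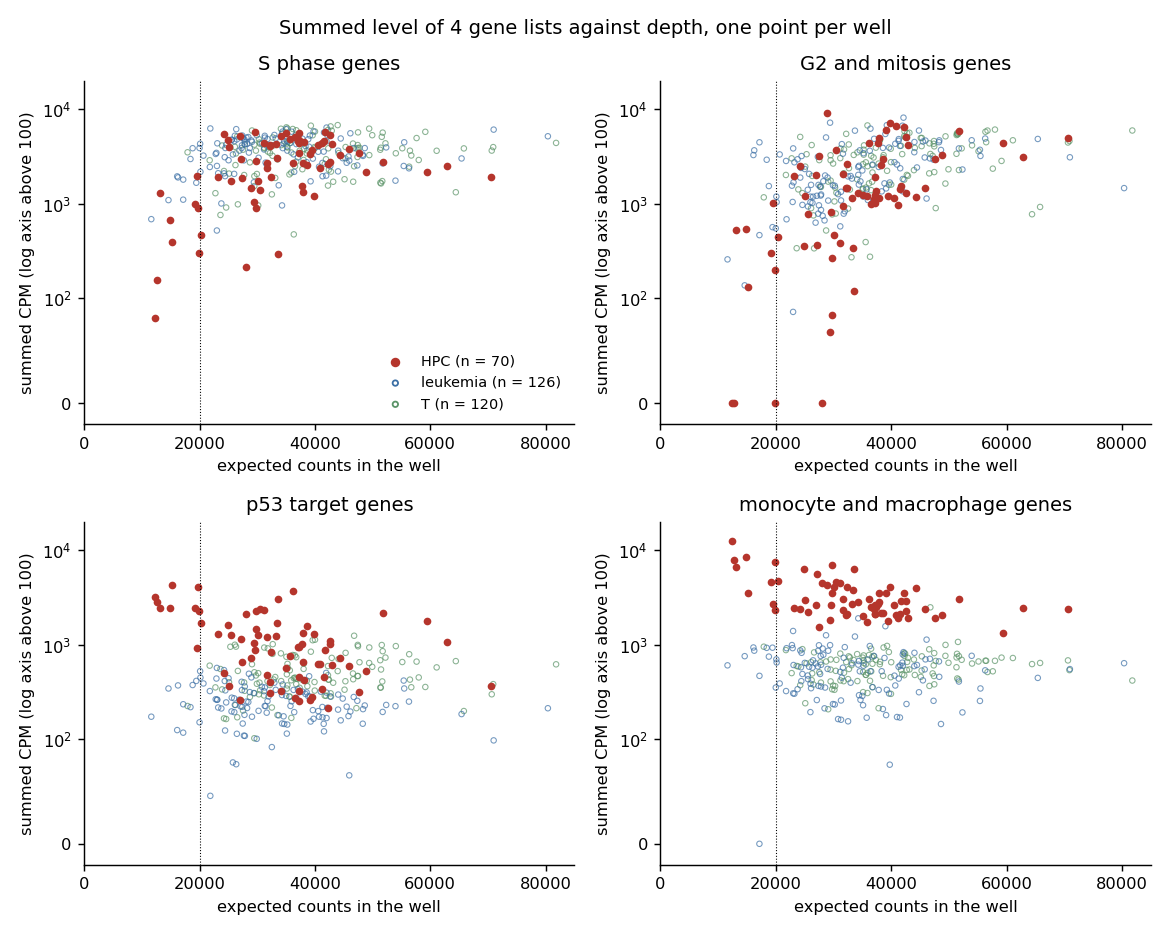
Summed CPM of the S phase, G2 and mitosis, p53 target and monocyte lists (y, log axis above 100 and linear below) against the expected counts of the well (x), for HPC wells (filled), leukemia wells and T wells (open). The dotted line marks 20000 counts; the 9 HPC wells left of it lie low for both cell cycle lists and high for p53 target and monocyte genes.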

How the data were processed

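Single picked cells of 3 mouse lines were sequenced in wells. The deposited table holds expected counts per gene and well, and 5.44% of its positive values are not whole. Per the submitters' processing notes, bcl2fastq, STAR and mm10 were used, in versions not given in the sources used here. The protocol's spike-in RNA was not analysed here, and 1863 columns of other wells were not used. From these counts, CPM were summed by line and plate, with a pseudocount of 1 CPM. No test was run, since no cultures are named and a well is a single cell. Values were rounded only for thinning to 10000 counts. Named genes were list members, the 12 largest differences each way among genes with 50 CPM and 30 counts in 1 group and 1 sign on all 4 plates, and the 12 most variable, leaving out spike-in, mitochondrial and predicted genes. Members and lists were chosen with earlier results of these data known. Intervals are exact (Clopper-Pearson, 95%), and folds against 0 use a floor of 3 counts over the group. Promoters and positions are RefSeq's (GRCm38.p6). Scripts were tested on simulated data and ran in python 3.11.15 with matplotlib 3.10.9, scipy 1.17.1, pandas 2.3.3 and numpy 2.4.6. Some list members are not reported here.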

Additional observations from a re-analysis of the deposited data

How the results depend on the processing

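No paired analysis was possible because the replicate numbers name single wells and pair none across lines, and no test was run. Differences between lines were taken within plates. Ratios, folds against 0 and the comparison of shallow with deeper HPC wells used counts pooled over the plates. Called genes, as a share of the 8444 genes measured, moved by over 1.5 times with no minimum on the level (24.40% lower, against 14.38%), with a minimum of 50 CPM (4.10% higher and 4.26% lower, with 15 monocyte genes higher) and with a 1.5-fold call (25.18% lower). Leaving out each plate in turn gave 10.58% to 11.25% higher, 14.32% to 15.04% lower, 21 to 23 monocyte genes higher, 18 stem genes higher, 14 T lymphoid genes lower and 5.74% to 8.69% of genes with a variance of at least 2 times the mean. That share was 4.40% without HPC wells under 20000 counts. No called gene count or named difference changed direction under the alternatives run, but 3 list medians did. That of the ITAM list was -0.05 with no minimum, -0.23 with Rn45s left out, -0.01 without plate 1 and -0.07 without plate 3. That of the erythroid list was -0.0046 over 8 genes with no minimum, against 6.16 for its 1 measured gene. The B lymphoid median was 1.87 over 3 measured genes. It was -1.40 without plate 4 and -1.37 without HPC wells under 20000 counts. In both settings only 2 B lymphoid genes were measured, so these medians are not over the same genes. What else moved the list medians was not tested. Leaving out shallow wells, leaving out the 5 wells of other lines with rule genes, thinning the scores to 10000 counts, and leaving out the genes of the rule or the top well of a gene were chosen after seeing the data. A median of 33905.5 counts per well limits what a count of 0 can show.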
